A study of Caenorhabditis elegans with 30 samples.

Results

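The genes described here belong, by name, to families with roles in the release, use or breakdown of fatty acids in *Caenorhabditis elegans*. These are acyl-CoA synthetases (acs), carnitine palmitoyltransferases (cpt), enoyl-CoA hydratases (ech) and lipases (lipl, lips, fil and atgl). Members were the genes whose single symbol in the deposited tables carries 1 of these 7 stems and a number. 62 of the 25902 genes measured met this rule, each with 1 probe set: 21 acs, 6 cpt, 9 ech, 8 lipl, 16 lips and 2 fil genes. No gene of the tables carried an atgl symbol. In RefSeq lips-14 and lips-16 are pseudogenes and acs-9 is named pkal-1. The study, on endoplasmic reticulum (ER) stress, put total RNA of whole animals on 30 Affymetrix arrays, 3 per group in 10 groups. In the wild-type strain N2, 1 group received RNAi against pmt-2 and another received tunicamycin at 25 µg/mL for 4 hours. A further group was a pmt-2 mutant, labelled a knockout. The ire-1, pek-1 and atf-6 mutants, labelled knockouts, each formed a group on pmt-2 RNAi and a group on the empty vector L4440. The last group was N2 on the vector. The labels name no alleles.

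All groups grew from synchronised L1 larvae to about young adulthood on medium with 25 µg/mL carbenicillin and 1 mM IPTG. The pmt-2 mutant carries L4440 in its titles but has no RNAi entry among its characteristics. Tunicamycin was given in M9 buffer, a step described for that group alone, so effects of the drug and of the buffer cannot be told apart. The source labels of the N2 RNAi and tunicamycin groups are exchanged relative to the titles and characteristics, which were used here. Nothing in the labels ties the 3 arrays of a group to separate cultures, so the p-values measure only the spread between arrays, which may be technical.

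As background, fat is stored in worms mainly in the intestine and as yolk in oocytes. Lipases cut fatty acids from triglycerides at lipid droplets or in lysosomes. Acyl-CoA synthetases join each fatty acid to coenzyme A, which commits it either to breakdown or to new lipids. Carnitine palmitoyltransferases carry long chains into mitochondria, where beta-oxidation shortens them in a repeated cycle whose hydration step is done by enoyl-CoA hydratases. Peroxisomes run a parallel cycle with their own enzymes. In worms, fasting is known to raise acs-2 through the nuclear receptor NHR-49, and the lysosomal lipases lipl-1 and lipl-3 through the factor HLH-30. PMT-2 acts in the route that leads from phosphoethanolamine to phosphocholine, a precursor of phosphatidylcholine. Tunicamycin blocks N-glycosylation in the ER, and ATF-6, IRE-1 and PEK-1 are the sensors of the unfolded protein response.

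Values are log2 signals after RMA normalisation, so a difference of 1 is a doubling. Changes are differences of means over 3 arrays with their standard error (SE). A change was called when limma's moderated test, adjusted by the Benjamini-Hochberg method over all 28387 probe sets, gave a p under 0.05. Signals of different probe sets are not compared with each other. The targeted gene pmt-2 read 6.8, 6.65 and 6.45 on the N2 RNAi arrays, 8.68, 8.86 and 8.55 with tunicamycin and 4.49, 4.82 and 4.8 in the pmt-2 mutant, against 10.08, 10.22 and 10.13 in N2 on the vector. The array medians lay between 3.74 and 3.89. Replicates 1 and 2 of the N2 RNAi group were the least alike pair within any group, with a correlation over probe sets of 0.98. On replicate 2 the mean of 17 oocyte and eggshell markers was 10.03, against 10.85 and 10.66 on replicates 1 and 3 of that group and 10.88 to 10.97 in N2 on the vector.

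20 of the 62 genes stayed under a log2 signal of 5 in every group, where the array separates levels poorly: 10 lips, 3 lipl, 3 acs, 2 ech and both fil genes. 26 were at 5 or more in every group and 16 lay on both sides. Over all probe sets 54.1% stayed under 5 in every group. These counts use the deposited group means, which can differ from the plain means of the 3 arrays. By the plain means ech-9 reached 5.13 with tunicamycin and lips-3 reached 5.1 in the pmt-2 mutant. The genes are spread over the genome, with 21 on chromosome V, 16 on II, 10 on IV, 6 each on III and X and 3 on I. A few are neighbours: lips-11, lips-12 and lips-13 follow each other on chromosome II, ech-9, ech-8 and lipl-7 on chromosome IV, with 163 bases between ech-8 and lipl-7, and lips-15 lies 3284 bases from lips-16 on chromosome II. acs-2 lies at positions 15567373 to 15569870 of chromosome V, cpt-3 at 2082809 to 2088262 of chromosome III and lipl-1 at 12919991 to 12922100 of chromosome V, on the plus strand in each case, by the files' coordinates (build not given in the sources used here). Whole genes are measured, with no value per exon or UTR.

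**Figure D1:**
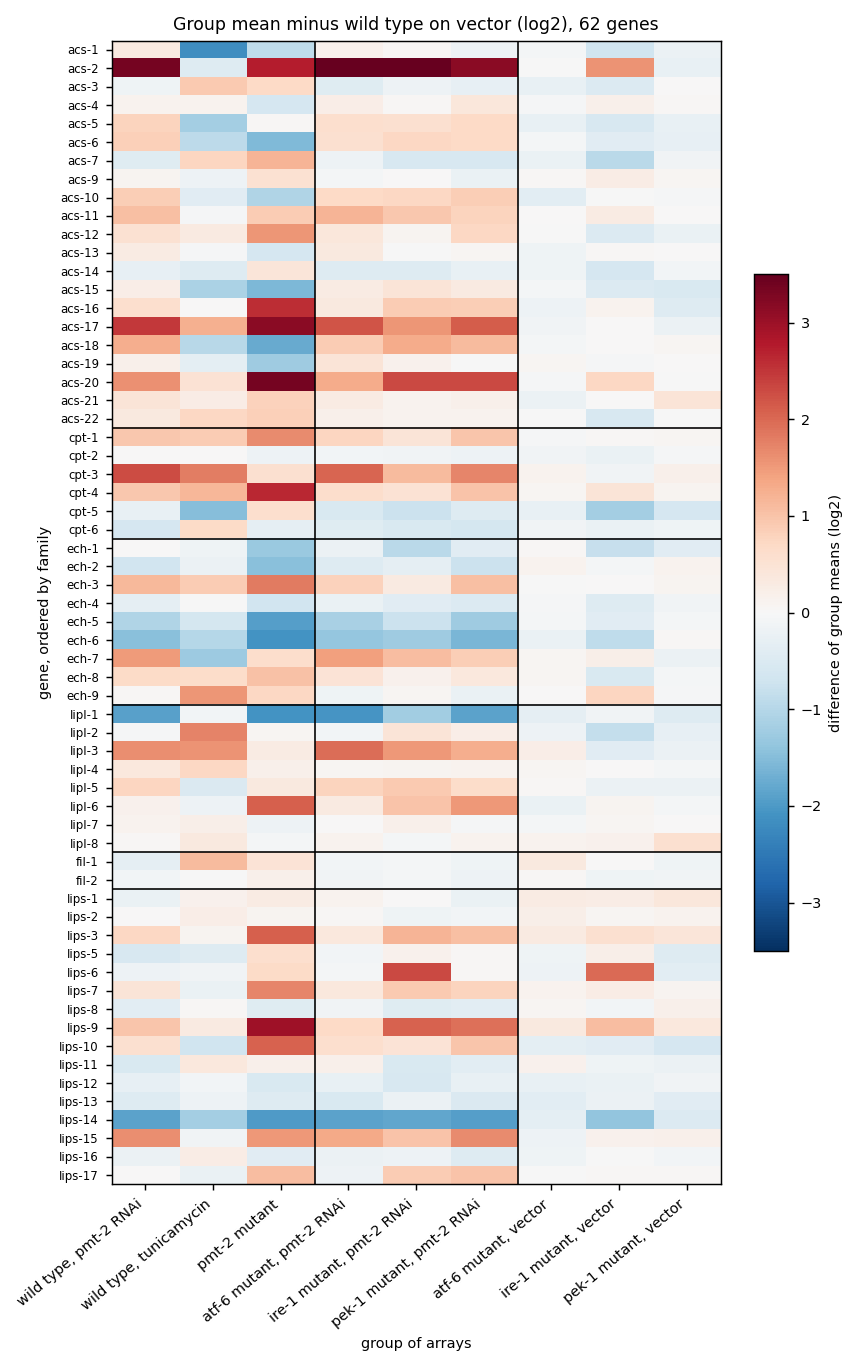
Difference of group means from N2 on the vector (log2, colour) for the 62 genes, in rows by family and with 9 groups in columns. acs-2 and acs-17 are red in all columns with pmt-2 RNAi and in the pmt-2 mutant, ech-6, ech-5, lipl-1 and lips-14 are blue there, and the atf-6 and pek-1 columns on the vector are nearly blank, with 0 genes called in each.

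With RNAi against pmt-2 in wild type, 14 of the 21 acyl-CoA synthetases rose, led by acs-2, while the other families had genes moving in both directions or none called. 25 of the 62 genes rose and 10 fell. That is 56.5% of them, against 33.3% of all probe sets, of which 15.6% rose and 17.7% fell. With the probe sets under 5 in every group left out, 33 of the 42 remaining genes (78.6%) and 64.4% of the remaining probe sets were called. The median change was 0.14 over the 62 genes and -0.09 over all probe sets. With changes centred on that median 28 of the genes rose and 8 fell, against 18.6% and 12.6% of all probe sets.

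Of the 21 acyl-CoA synthetases 14 rose, acs-7 fell and 6 were not called. acs-2, which makes acyl-CoA for mitochondrial oxidation, read 8.22, 8.89 and 8.36 with RNAi, against 4.9, 5.19 and 5.28 on the vector. The groups lie far apart, and the change of 3.36 ± 0.24 (SE) is 10.3-fold (limma adjusted p = 3.58e-11). It was the largest change among the 62 genes. acs-17 read 9.77, 10.07 and 9.76 with RNAi and 7.39, 7.49 and 7.31 on the vector, a rise of 2.47 ± 0.11 or 5.54-fold. acs-20, a homologue of fatty acid transport proteins known to be needed for the surface barrier of the worm, read 5.89, 7.28 and 6.43 with RNAi and 4.56, 5.26 and 4.99 on the vector. Its rise of 1.6 ± 0.22 carries a wide spread between arrays, with replicate 2 highest. The other rises in this family ran down from 1.27 ± 0.32 for acs-18 and 1.05 ± 0.1 for acs-11 to 0.33 ± 0.11 for acs-22, another fatty acid transport protein homologue, and 0.29 ± 0.11 for acs-13. The call of acs-13 was lost when any of 5 of the 6 arrays was left out (adjusted p up to 0.246), and that of acs-22 without any of 3 (up to 0.14). acs-7, a peroxisomal synthetase of the ascaroside pheromone route, fell by 0.44 ± 0.11.

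The carnitine palmitoyltransferases did not move as one. cpt-1, a homologue of the enzyme that loads carnitine at the outer mitochondrial membrane, read 10.09, 10.35 and 10.22 with RNAi and 9.29, 9.16 and 9.36 on the vector, a rise of 0.95 ± 0.08. cpt-3 read 6.15, 6.02 and 6.13 with RNAi and 4.23, 3.68 and 3.51 on the vector, a rise of 2.29 ± 0.18 or 4.9-fold. cpt-4 rose by 0.94 ± 0.19 and cpt-6 fell by 0.59 ± 0.17, a call lost without replicate 2 of the RNAi arrays or replicate 1 on the vector (adjusted p up to 0.0968). cpt-2, named for the enzyme that acts inside the mitochondrion, read 9.22, 9.22 and 9.13 with RNAi and 9.17, 9.22 and 9.14 on the vector (change 0.02 ± 0.08, adjusted p = 0.902). cpt-5 changed by -0.27 ± 0.18 and was not called.

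Among the 9 enoyl-CoA hydratases 3 rose and 4 fell. ech-6, the homologue of the human mitochondrial short-chain hydratase ECHS1, read 7.27, 7.17 and 7.16 with RNAi and 8.73, 8.57 and 8.65 on the vector. No array of either group comes near the other, and the fall of 1.45 ± 0.09 is 2.73-fold. ech-5 fell by 1.06 ± 0.14, ech-2 by 0.67 ± 0.15 and ech-4 by 0.3 ± 0.1. ech-7 read 10.84, 10.71 and 10.6 with RNAi and 9.23, 9.52 and 8.97 on the vector, a rise of 1.47 ± 0.14. ech-3 rose by 1.13 ± 0.11 and ech-8 by 0.68 ± 0.18, while ech-1 (change 0 ± 0.14) and ech-9 (0.05 ± 0.22) were not called. The gene that the files call ech-1 is ech-1.1 in RefSeq.

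The lipl genes encode homologues of mammalian lysosomal acid lipase, and they split. lipl-1 read 4.83, 4.9 and 4.7 with RNAi and 6.8, 6.74 and 6.55 on the vector, a fall of 1.89 ± 0.15 or 3.7-fold. lipl-3 read 5.05, 5.4 and 5.55 with RNAi and 4.09, 3.4 and 3.64 on the vector, a rise of 1.62 ± 0.26. These are the lysosomal lipases that fasting is known to raise together, and here they moved in opposite directions. lipl-5 rose by 0.76 ± 0.1. lipl-2 changed by -0.05 ± 0.15 and lipl-4 by 0.36 ± 0.22, neither called. lipl-6, lipl-7 and lipl-8 were not called either.

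Of the 16 lips genes, a lipase-related family, 3 rose, 3 fell and 10 were not called. lips-15 read 7.77, 8.03 and 7.78 with RNAi and 6.01, 6.21 and 6.47 on the vector, a rise of 1.63 ± 0.13. lips-14, a pseudogene in RefSeq, read 2.82, 2.61 and 2.64 with RNAi and 5.02, 4.4 and 4.24 on the vector, a fall of 1.86 ± 0.25 that ends in the range where the array hardly resolves signal. lips-9 rose by 0.98 ± 0.25 with overlapping arrays, 3.99, 5.55 and 4.63 with RNAi against 3.65, 4.12 and 3.46 on the vector. lips-10 rose by 0.56 ± 0.14, lips-5 fell by 0.56 ± 0.13 and lips-13 fell by 0.46 ± 0.15. Like lips-14, the falling genes lips-5 and lips-13 stayed under 5 in every group, where the array separates levels poorly. The fasting-induced lipase genes fil-1 (-0.32 ± 0.22) and fil-2 (-0.09 ± 0.14) were not called and read 3.5 or less on every array of the study.

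**Figure D2:**
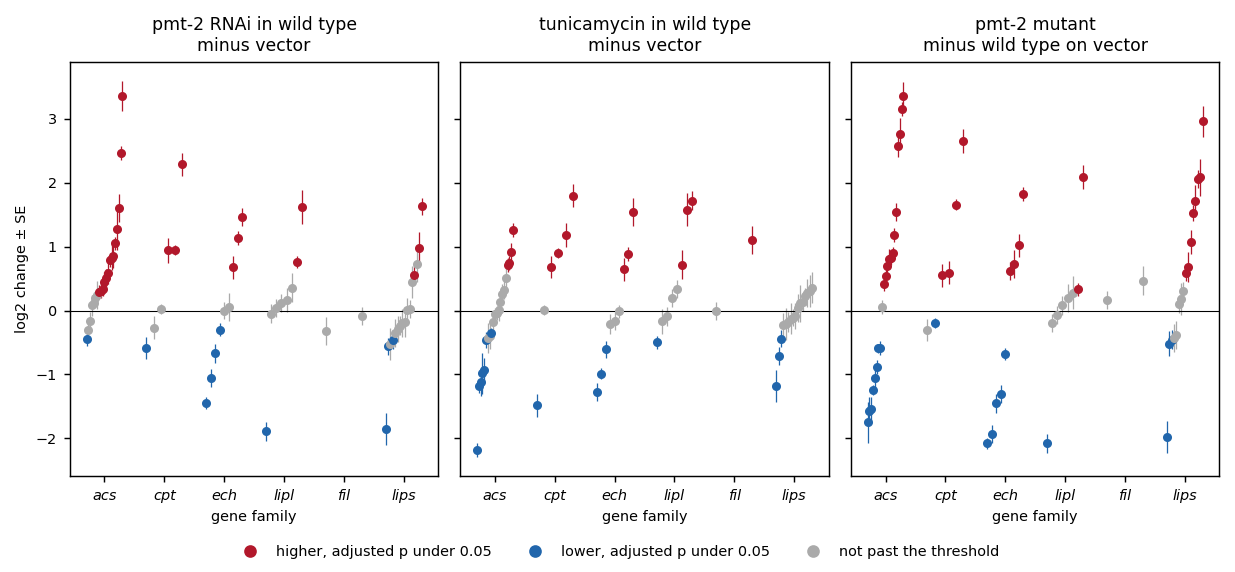
Log2 change ± SE of each of the 62 genes, by family and ordered by size within it, in 3 comparisons with N2 on the vector (red higher, blue lower, grey not called). Most acs points lie above 0 with pmt-2 RNAi (14 higher, 1 lower), the tunicamycin panel has 7 acs genes lower and 4 higher, and the lips points spread widely in the pmt-2 mutant panel (8 higher, 3 lower).

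Marker lists of other tissues moved in the same comparison. With pmt-2 RNAi 9 of 17 oocyte and eggshell markers fell and 0 rose (median -0.47), 12 of 19 sperm markers rose and 0 fell, and 11 of 13 neuron markers rose and 0 fell. 4 of 15 intestine markers rose and 4 fell, and 1 of 12 muscle markers rose and 2 fell. The array means of the intestine list were 7.4 to 7.93 with RNAi and 7.42 to 7.69 on the vector, and those of the neuron list 7.56 to 7.93 with RNAi and 6.88 to 6.98 on the vector. In whole animals a change in the number of cells of a tissue and a change of RNA per cell cannot be told apart. The part of these lists in the changes of the lipid genes was not tested.

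Of 26 other enzymes of the mitochondrial and peroxisomal cycles that were measured, 7 rose and 11 fell with pmt-2 RNAi (median -0.07, against -0.09 over all probe sets). In this comparison 15.6% of all probe sets rose and 17.7% fell, and 64.4% of those not under 5 in every group were called. acdh-1, an acyl-CoA dehydrogenase, fell by 4.07 ± 0.3. The peroxisomal acyl-CoA oxidases acox-1.3, acox-1.2 and acox-1.4 fell by 2.63 ± 0.15, 2.35 ± 0.16 and 1.82 ± 0.17, and the thiolase kat-1 fell by 0.6 ± 0.09. On the rising side were hacd-1 (0.86 ± 0.11) and acdh-4 (1.03 ± 0.21). The thiolase daf-22, which ends the peroxisomal cycle, changed by -0.11 ± 0.13 and was not called.

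Of 20 regulators of lipid breakdown 14 rose and 2 fell with pmt-2 RNAi (median 0.78), against 15.6% and 17.7% of all probe sets. Of the probe sets not under 5 in every group 64.4% were called. The nuclear receptor gene nhr-49 rose by 1.24 ± 0.08, the mediator subunit gene mdt-15 by 0.77 ± 0.09, hlh-30 by 1.28 ± 0.14 and the FoxA factor gene pha-4 by 1.79 ± 0.16. hosl-1, a homologue of hormone-sensitive lipase, rose by 0.43 ± 0.1. lid-1, whose protein is known to assist ATGL-1 at lipid droplets, fell by 0.61 ± 0.14. Of 10 glyoxylate cycle and peroxisome genes 3 rose and 4 fell, led by icl-1 of the glyoxylate cycle (2.54 ± 0.15) and the peroxisomal transporter gene pmp-5, which fell by 2.42 ± 0.15.

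With tunicamycin in the same strain, 15 of the 62 genes rose and 15 fell, or 48.4% of them against 16.6% of all probe sets (8.24% higher, 8.37% lower). Without the probe sets under 5 in every group, 24 of 42 genes (57.1%) and 34.1% of probe sets were called. The arrays of N2 on the vector serve here again, as they do for the pmt-2 mutant, so these comparisons are not independent of each other.

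Of the 21 acyl-CoA synthetases 7 fell with tunicamycin, 4 rose and 10 were not called. acs-1, known to be needed for the use of branched-chain fatty acids, read 7.11, 7.01 and 7.11 with tunicamycin and 9.3, 9.32 and 9.17 on the vector, a fall of 2.19 ± 0.11 or 4.55-fold. It was the largest change of the 62 genes in this comparison. acs-5 fell by 1.18 ± 0.11 and acs-15, whose deposited group means stayed under 5 in every group, by 1.12 ± 0.22. acs-2 read 4.58, 4.93 and 4.56 with tunicamycin, against 4.9, 5.19 and 5.28 on the vector, and its change of -0.43 ± 0.24 was not called (adjusted p = 0.254). acs-17 read 8.65, 8.59 and 8.72, a rise of 1.26 ± 0.11, and acs-3, acs-7 and acs-22 also rose, by 0.92 ± 0.14, 0.75 ± 0.11 and 0.72 ± 0.11.

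4 of the 6 carnitine palmitoyltransferases rose with tunicamycin. cpt-3 read 5.51, 5.65 and 5.67 with the drug and 4.23, 3.68 and 3.51 on the vector (rise of 1.8 ± 0.18). cpt-4 rose by 1.18 ± 0.19, cpt-1 by 0.9 ± 0.08 and cpt-6 by 0.68 ± 0.17. The call of cpt-6 was lost without replicate 2 on the vector (adjusted p = 0.0556). cpt-5 read 3.44, 3.97 and 4.08 with the drug and 5.32, 5.27 and 5.34 on the vector, a fall of 1.48 ± 0.18. cpt-2 changed by 0.01 ± 0.08. Among the hydratases ech-9 rose by 1.54 ± 0.22, with arrays at 5.8, 4.67 and 4.93 against 3.8, 3.47 and 3.5 on the vector. ech-7 fell by 1.28 ± 0.14, ech-6 by 0.99 ± 0.09 and ech-5 by 0.61 ± 0.14.

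Among the lysosomal lipases lipl-2 read 8.22, 8.23 and 8.23 with tunicamycin and 6.6, 6.53 and 6.38 on the vector, a rise of 1.72 ± 0.15 or 3.3-fold. lipl-3 rose by 1.58 ± 0.26, lipl-5 fell by 0.5 ± 0.1, and lipl-1 kept 6.93, 6.32 and 6.59 against 6.8, 6.74 and 6.55 (change -0.09 ± 0.15, not called). lipl-4 rose by 0.72 ± 0.22 with overlapping arrays near the floor of the array, and leaving out 3 of the 6 arrays in turn ended the call, with an adjusted p of up to 0.239. 0 of the 16 lips genes rose and 3 fell, lips-14 by 1.18 ± 0.25, while fil-1 rose by 1.11 ± 0.22 at a signal of 3.36 to 3.5. With tunicamycin 10 of 15 intestine markers fell and 3 rose, 9 of 12 muscle markers fell and 0 rose, and 0 of 17 oocyte markers were called. Of 13 neuron markers 4 fell and 1 rose, and of 19 sperm markers 3 fell and 0 rose. The array means of the intestine list were 6.72 to 6.81 with the drug and 7.42 to 7.69 on the vector. The part of these lists in the changes of the lipid genes was not tested.

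Set directly against each other, tunicamycin and pmt-2 RNAi differed in 36 of the 62 genes, 15 higher with tunicamycin and 21 lower. Over all probe sets 39.7% differed (22.2% higher, 17.5% lower). With the probe sets under 5 in every group left out, the shares were similar, at 31 of 42 genes (73.8%) and 70.7% of probe sets. The median of all probe sets was 0.13 in this contrast, and with each change centred on it the split was 9 higher and 23 lower, against 14.3% and 21.2% of all probe sets. acs-2 was lower with tunicamycin by 3.8 ± 0.24 on the log2 scale, ech-7 by 2.76 ± 0.14 and acs-1 by 2.49 ± 0.11. 13 acyl-CoA synthetases were lower with tunicamycin and 3 higher. lipl-1 and lipl-2 were higher with tunicamycin, by 1.8 ± 0.15 and 1.77 ± 0.15. For cpt-1 (-0.05 ± 0.08, adjusted p = 0.668), lipl-3 (-0.04 ± 0.26, 0.92) and cpt-4 (0.23 ± 0.19, 0.341) no difference between tunicamycin and RNAi was found by limma.

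**Figure D3:**
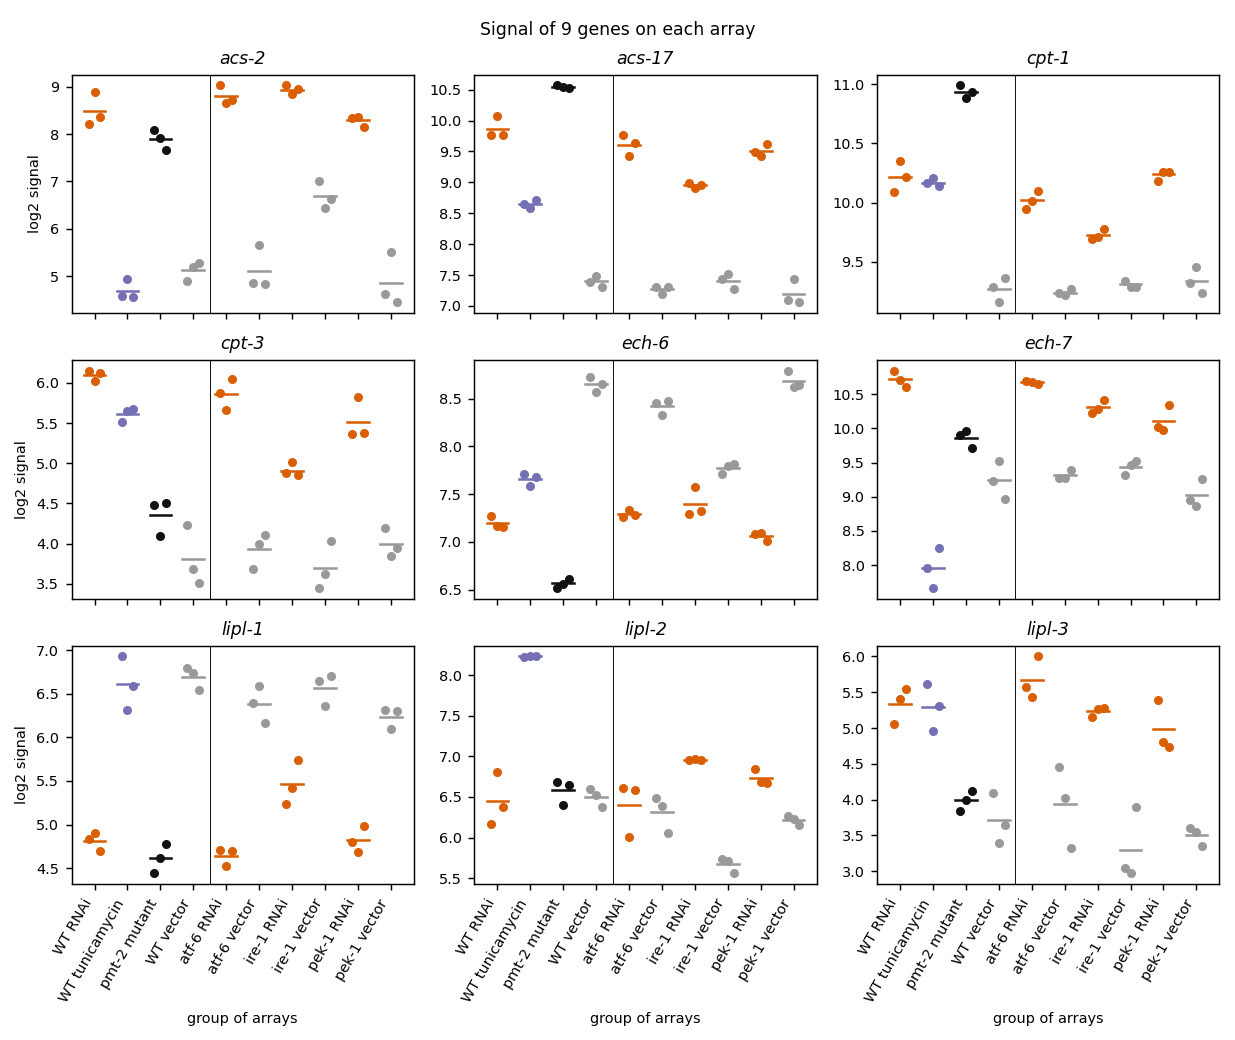
Log2 signal on each array (points) and group mean (bars) for 9 genes, with N2 groups and the pmt-2 mutant left of the line and the 3 sensor mutants right of it; each panel has its own axis. acs-2 stands at 7.67 or more with pmt-2 RNAi in all 4 genotypes and in the pmt-2 mutant, and at 5.65 or less in the other groups apart from the ire-1 mutant on the vector, and lipl-2 is highest with tunicamycin.

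In the pmt-2 mutant 30 of the 62 genes were higher than in N2 on the vector and 18 lower, or 77.4% against 59.2% of all probe sets (28.4% higher, 30.8% lower). Without the probe sets under 5 in every group the shares were 88.1% of 42 genes and 87.4% of probe sets. The change of the 62 genes had a median of 0.31, that of all probe sets -0.13, and centred on -0.13 32 genes were higher and 15 lower, against 31.6% and 24.6% of probe sets. All 17 oocyte and eggshell markers fell in the mutant (median -6.36), 12 of them to a mean under 5, and their array means were 4.67 to 4.91 in the mutant and 10.88 to 10.97 in N2. All 13 neuron markers rose, 14 of 19 sperm markers fell, and 7 of 15 intestine markers rose and 5 fell. The part of this difference in oocyte transcripts in the changes below was not tested.

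acs-20 read 8.35, 8.28 and 8.24 in the mutant and 4.56, 5.26 and 4.99 in N2, a difference of 3.36 ± 0.22 or 10.2-fold. acs-17 read 10.57, 10.54 and 10.53 in the mutant, 3.15 ± 0.11 higher than N2, and acs-2 8.08, 7.92 and 7.67, 2.77 ± 0.24 higher. acs-16 was 2.58 ± 0.17 higher. Of the 21 acyl-CoA synthetases 12 were higher and 8 lower. The lower ones included acs-18 (-1.75 ± 0.32), acs-15 (-1.58 ± 0.22), acs-6 (-1.54 ± 0.19) and acs-19 (-1.24 ± 0.08), a homologue of acetyl-CoA synthetase. acs-18, acs-15 and acs-6 had means of 2.75, 2.8 and 2.79 in the mutant, where the array hardly resolves signal, so the sizes of their falls are uncertain.

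cpt-4 read 6.3, 6.2 and 6.07 in the mutant and 3.7, 3.29 and 3.62 in N2, a rise of 2.66 ± 0.19, and cpt-1 rose by 1.66 ± 0.08. cpt-3 was only 0.55 ± 0.18 higher, with overlapping arrays, and the call was lost without replicate 3 of N2 on the vector (adjusted p = 0.0721). cpt-2 was 0.19 ± 0.08 lower (adjusted p = 0.0438), a call that was lost when the changes were centred on the median of all probe sets (-0.05, adjusted p = 0.598) and when any of 5 of the 6 arrays was left out (up to 0.129). All 9 hydratases differed, 5 lower and 4 higher. ech-6 read 6.52, 6.56 and 6.61 in the mutant and 8.73, 8.57 and 8.65 in N2, a fall of 2.08 ± 0.09. ech-5 fell by 1.93 ± 0.14 and ech-1 by 1.31 ± 0.14, while ech-3 rose by 1.83 ± 0.11. lipl-1 read 4.44, 4.62 and 4.78 in the mutant (fall of 2.08 ± 0.15), lipl-6 rose by 2.09 ± 0.19, and lipl-3 (0.28 ± 0.26) was not called. 8 lips genes were higher, led by lips-9 with 6.69, 6.66 and 6.77 in the mutant and 3.65, 4.12 and 3.46 in N2 (2.96 ± 0.25), lips-3 (2.09 ± 0.29) and lips-10 (2.06 ± 0.14). By the deposited group means lipl-6, lips-3 and ech-1 stayed under 5 in every group, where the array separates levels poorly.

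Among the 26 other beta-oxidation enzymes 7 were higher in the mutant and 16 lower (median -0.81). In this comparison 28.4% of all probe sets were higher and 30.8% lower. Of the probe sets not under 5 in every group 87.4% were called, so most genes of any list would be. acdh-1 was 4.69 ± 0.3 lower, acox-1.3 3.34 ± 0.15 lower and kat-1 2.07 ± 0.09 lower, and acdh-6 was 3.08 ± 0.37 higher. Of the 20 regulators 14 were higher and 5 lower, with klf-3 at 3.12 ± 0.17, hlh-30 at 2.53 ± 0.14, mdt-15 at 1.52 ± 0.09, nhr-49 at 1.1 ± 0.08 and hosl-1 at 0.85 ± 0.1 above N2, and lid-1 at -1.42 ± 0.14. icl-1 was 2.73 ± 0.15 higher.

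Between the pmt-2 mutant and pmt-2 RNAi in wild type, 46 of the 62 genes differed, 26 higher in the mutant and 20 lower. Over all probe sets 51.5% differed (27.7% higher, 23.8% lower). With the probe sets under 5 in every group left out, 36 of 42 genes (85.7%) and 81.4% of probe sets differed. acs-18 was 3.02 ± 0.32 lower in the mutant, acs-6 was 2.38 ± 0.19 lower, and acs-16 was 2 ± 0.17 higher. acs-18 read 2.15, 2.66 and 3.45 in the mutant and 5.52, 6.09 and 5.72 with RNAi, with N2 on the vector in between at 3.74, 4.97 and 4.81. The mutant's signals of acs-18 and acs-6 lie where the array hardly resolves signal, so the sizes of these differences are uncertain. cpt-3 and lipl-3 were lower in the mutant than with RNAi, by 1.74 ± 0.18 and 1.35 ± 0.26. Genes for which limma found no difference between mutant and RNAi included lipl-1 (-0.2 ± 0.15), lips-15 (-0.1 ± 0.13) and lips-14 (-0.12 ± 0.25). lips-14 read 2.82, 2.61 and 2.64 with RNAi and 2.77, 2.65 and 2.28 in the mutant. At such signals the array could hardly show a difference. 9 lips genes were higher in the mutant and 0 lower.

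RNAi against pmt-2 was also given to the mutants of the 3 sensors, each with its own vector arrays, so these comparisons share no arrays with that in wild type. 24 of the 62 genes rose and 6 fell in the atf-6 mutant, against 29.9% of probe sets called (13.8% higher, 16.1% lower). In the ire-1 mutant 27 rose and 3 fell, against 28.1% (14.3% higher, 13.8% lower), and in the pek-1 mutant 27 rose and 11 fell, against 43.9% (18.7% higher, 25.2% lower). With the probe sets under 5 in every group left out, 27 of 42 genes (64.3%) and 59.6% of probe sets were called in the atf-6 mutant. The shares were 32 of 42 (76.2%) and 57.1% in the ire-1 mutant, and 33 of 42 (78.6%) and 73.9% in the pek-1 mutant. 18 genes rose in all 4 genotypes, where 8.17% of probe sets did, and ech-6 and lipl-1 fell in all 4, where 6.43% of probe sets did. The 18 were acs-2, acs-5, acs-6, acs-10, acs-11, acs-12, acs-16, acs-17, acs-18, acs-20, cpt-1, cpt-3, ech-3, ech-7, lipl-3, lipl-5, lips-10 and lips-15. 15 genes were called in none of the 4. acs-7 and lips-5 were called in opposite directions in different genotypes: acs-7 rose in the ire-1 mutant (0.36 ± 0.11) and fell in wild type and the pek-1 mutant (-0.45 ± 0.11), and lips-5 rose in the pek-1 mutant (0.49 ± 0.13) and fell in wild type.

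Tissue markers moved in these comparisons too. Of 17 oocyte and eggshell markers 8 fell in the ire-1 mutant, 10 in the pek-1 mutant and 4 in the atf-6 mutant, where 1 rose. Of 19 sperm markers 12, 13 and 7 rose in the ire-1, pek-1 and atf-6 mutants, of 13 neuron markers 9, 10 and 6, and of 12 muscle markers 7, 5 and 5, with 0, 3 and 2 muscle markers lower. Of 15 intestine markers 7, 6 and 5 rose and 2, 6 and 3 fell. The part of these lists in the changes of the 62 genes was not tested.

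acs-2 read 9.03, 8.65 and 8.73 with RNAi in the atf-6 mutant, against 4.85, 5.65 and 4.83 on its vector (rise of 3.69 ± 0.24). In the pek-1 mutant it read 8.34, 8.37 and 8.15 with RNAi and 4.63, 5.52 and 4.45 on the vector (3.42 ± 0.24). In the ire-1 mutant it read 9.03, 8.84 and 8.96 with RNAi and 7.01, 6.45 and 6.63 on the vector (2.24 ± 0.24). The RNAi arrays of all 4 genotypes thus lie between 8.15 and 9.03, while the vector arrays of the ire-1 mutant alone stand above the rest. lipl-3 rose by 1.73 ± 0.26, 1.94 ± 0.26 and 1.48 ± 0.26 in the atf-6, ire-1 and pek-1 mutants, and lipl-1 fell by 1.74 ± 0.15, 1.1 ± 0.15 and 1.42 ± 0.15.

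On the vector alone, 18 of the 62 genes differed between the ire-1 mutant and N2, 5 higher and 13 lower, against 6.16% of all probe sets (2.98% higher, 3.18% lower). Without the probe sets under 5 in every group, 19 of 42 genes (45.2%) and 16.4% of probe sets were called. lips-6 read 6.06, 4.63 and 4.96 in the ire-1 mutant and 3.34, 3.17 and 3.22 in N2, a difference of 1.97 ± 0.24 or 3.93-fold. It read 5.92, 5.44 and 5.28 with RNAi in the ire-1 mutant, and its group mean in the 8 other groups was 3.92 or less. acs-2 was 1.57 ± 0.24 higher in the ire-1 mutant, lips-9 1.08 ± 0.25, ech-9 0.75 ± 0.22 and acs-20 0.73 ± 0.22 higher. The 13 lower genes included lips-14 (-1.37 ± 0.25), cpt-5 (-1.19 ± 0.18), acs-7 (-0.94 ± 0.11), ech-6 (-0.88 ± 0.09), lipl-2 (-0.84 ± 0.15) and acs-1 (-0.71 ± 0.11). Of the 26 other beta-oxidation enzymes 0 were higher and 10 lower. By the authors' deposited table, whose false discovery rates rest on these 2 groups alone, 2 of the 62 genes and 1.05% of all probe sets passed 0.05.

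The atf-6 and pek-1 mutants on the vector did not differ from N2 in any of the 62 genes by limma, against 0.194% and 0.113% of all probe sets called. An unadjusted p under 0.05 was found for 6 of the 62 genes in the atf-6 mutant (10.1% of all probe sets) and 13 in the pek-1 mutant (8.47%), and 0 of the 62 passed in the authors' deposited table for either mutant. The largest differences were -0.38 for lips-13 in the atf-6 mutant and -0.59 for lips-10 in the pek-1 mutant.

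The response to pmt-2 RNAi differed between the ire-1 mutant and wild type in 13 of the 62 genes, tested as an interaction, with 6 differences positive and 7 negative, against 6.25% of all probe sets (3.12% positive, 3.14% negative). Without the probe sets under 5 in every group, 18 of 42 genes (42.9%) and 17% of probe sets were called. In 11 of the 13 the change had the same sign in the ire-1 mutant and was smaller. cpt-3 rose by 1.22 ± 0.18 in the ire-1 mutant and by 2.29 ± 0.18 in wild type, acs-17 by 1.54 ± 0.11 and 2.47 ± 0.11, and cpt-1 by 0.42 ± 0.08 and 0.95 ± 0.08. ech-6 fell by 0.38 ± 0.09 in the ire-1 mutant and by 1.45 ± 0.09 in wild type, and lipl-1 by 1.1 ± 0.15 and 1.89 ± 0.15. lips-14, ech-5 and cpt-4 were called in wild type and not in the ire-1 mutant. In the ire-1 mutant lips-14 read 2.99, 3.28 and 3.28 on the vector, where the array hardly resolves signal. A fall as large as that in wild type could therefore hardly show. lipl-2 behaved otherwise: it read 6.95, 6.97 and 6.95 with RNAi and 5.73, 5.71 and 5.56 on the vector in the ire-1 mutant, a rise of 1.29 ± 0.15, and did not change in wild type beyond its error (difference of responses 1.34 ± 0.21, adjusted p = 0.000135). acs-7 was the 1 other gene of the 13 outside this pattern, since its change had opposite signs in the ire-1 mutant (0.36 ± 0.11) and in wild type (-0.44 ± 0.11).

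**Figure D4:**
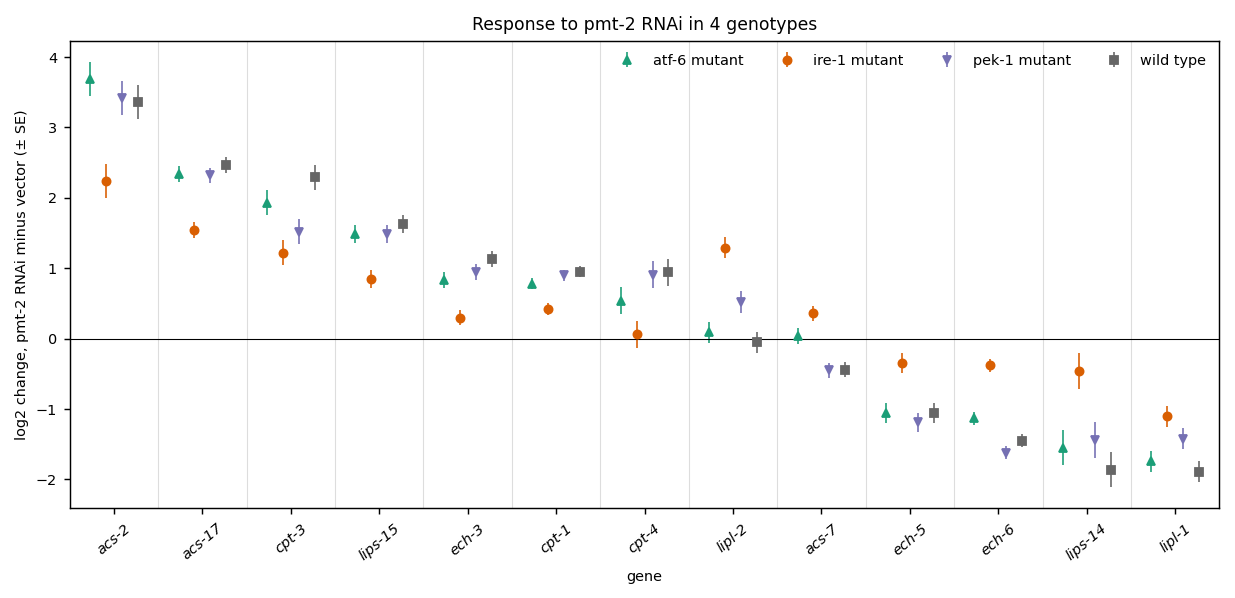
Log2 change with pmt-2 RNAi (± SE) in the atf-6, ire-1 and pek-1 mutants and in wild type for the 13 genes whose response differed between the ire-1 mutant and wild type. The ire-1 point lies nearer to 0 than the wild-type point for each gene but lipl-2, and for acs-7 these points lie on opposite sides of 0.

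The knockdown itself was also smaller in the ire-1 mutant. pmt-2 read 7.52, 7.54 and 7.35 with RNAi and 9.66, 9.69 and 9.6 on the vector there, a fall of 2.18 ± 0.11, against a fall of 3.51 ± 0.11 in wild type, and the responses differed by 1.33 ± 0.16 (adjusted p = 3.55e-06). The response also differed for 3 of 12 muscle markers (3 positive), 5 of 15 intestine markers (4 positive, 1 negative) and 1 of 13 neuron markers (negative). The part of these values in the smaller changes was not tested. 5 of the 13 genes (acs-2, acs-7, ech-6, lipl-2 and lips-14) also differed on the vector, in the opposite direction to the difference of responses. Both tests use the same vector arrays, which links their signs. The difference for acs-2 (-1.12 ± 0.33, adjusted p = 0.0435) was lost when any of 9 of the 12 arrays was left out (adjusted p up to 0.128), and that for lips-14 (1.4 ± 0.36) without replicate 1 of N2 on the vector (0.0632).

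In the pek-1 mutant the response differed from wild type in 3 genes, all in the positive direction. Over all probe sets 1.24% differed (1.02% positive, 0.225% negative). With the probe sets under 5 in every group left out, 2 of 42 genes (4.76%) and 4.17% of probe sets were called, which are similar shares. lipl-6 read 4.23, 3.99 and 3.74 with RNAi and 2.23, 2.49 and 2.4 on the vector in the pek-1 mutant, a rise of 1.61 ± 0.19, against 2.33, 3.09 and 2.4 with RNAi and 2.77, 2.57 and 2.02 on the vector in wild type. The responses differed by 1.46 ± 0.27. The other genes were lips-5 (1.05 ± 0.19) and lips-10 (1 ± 0.19). On the vector the means of lips-5 and lips-10 were 3.79 and 5.5 in the pek-1 mutant and 4.25 and 6.08 in N2. Those differences were not called, but the same vector arrays enter the difference of responses. Of these 3 genes, lipl-6 and lips-5 stayed under 5 in every group, where the array separates levels poorly. Without replicate 2 of N2 on RNAi, the array with the lower oocyte markers, 8 genes were called, and with the variance of the compared groups alone 0 were. pmt-2 fell by 2.9 ± 0.11 in the pek-1 mutant. In the atf-6 mutant 0 of the 62 responses differed from wild type by limma, against 0.0282% of all probe sets, and 3 had an unadjusted p under 0.05 (6.87% of all probe sets). The knockdown there was 3.37 ± 0.11.

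4 of the 62 genes were called in 0 of the 14 comparisons: fil-2, lipl-7, lips-2 and lips-16, of which only lipl-7 lay above 5, at group means of 6.26 to 6.66. The widest range of group means was that of acs-2, 8.94 with RNAi in the ire-1 mutant and 4.69 with tunicamycin, a span of 4.25 where the SD of its groups had a median of 0.21. cpt-2 stayed between 8.93 and 9.19 over all 10 groups.

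5 further genes carry such names in RefSeq but not in the files, and were matched by their sequence name. atgl-1, the homologue of adipose triglyceride lipase that starts lipolysis at lipid droplets, is C05D11.7 in the files. It read 10.57, 10.36 and 10.47 with RNAi in N2, 9.44, 9.58 and 9.66 with tunicamycin and 10.21, 10.08 and 10.06 in the pmt-2 mutant, against 9.31, 9.27 and 9.34 in N2 on the vector. It rose by 1.16 ± 0.1 with RNAi, was 0.81 ± 0.1 higher in the mutant, and its change of 0.26 ± 0.1 with tunicamycin was not called (adjusted p = 0.0925). With RNAi it rose by 1.26 ± 0.1, 0.43 ± 0.1 and 1.01 ± 0.1 in the atf-6, ire-1 and pek-1 mutants. The ire-1 response was smaller than that of wild type by 0.73 ± 0.14 on the log2 scale. On the vector atgl-1 was already 0.42 ± 0.1 higher in the ire-1 mutant than in N2, and both values use the same vector arrays. ech-1.2, a homologue of the alpha subunit of the mitochondrial trifunctional protein, changed by 0.1 ± 0.09 with RNAi, 0.18 ± 0.09 with tunicamycin and -0.01 ± 0.09 in the mutant, none called. acs-24 and acs-25 were 1.19 ± 0.17 and 1.13 ± 0.23 higher in the pmt-2 mutant at signals under 4, and acs-23, a pseudogene, was called in none of the 3 comparisons with N2 on the vector.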

How the data were processed

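RNA of 30 whole-animal samples (300 ng each) was measured on Affymetrix arrays. Per the submitters' processing notes RMA was used, with no version given. The deposited values are log2 signals, in a table of 29317 rows per array and as group means and SDs in 12 comparison tables of 28387 probe sets. These also hold p-values, FDR values and, per the file headers, a linear fold change, used as a signed score. The SD of each group's arrays matched the deposited SD within 0.005. In the tunicamycin table p-values carry minus signs and fold signs oppose the means. Changes were fitted over all 10 groups with limma 3.58.1 in R 4.3.3 (20 residual degrees of freedom), after a test on simulated data, and adjusted over all probe sets. A gene with several rows is represented by the one of highest mean. All 62 members matched a RefSeq locus (WBcel235). Genes named are the largest changes past the threshold, family extremes and known genes. The members, lists and tests were chosen with earlier results of these data known. Same-numbered arrays of different groups were not paired (135 pairs, median correlation of deviations 0.01, from -0.26 to 0.27). The number of arrays limits precision. Of the lists, acdh-10, pmp-4, unc-17 and cha-1 were not analysed here.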

Additional observations from a re-analysis of the deposited data

Results flagged for a closer look

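16 differences between genotypes in the response to pmt-2 RNAi passed the test of the difference itself. Between the ire-1 mutant and wild type, on the log2 scale, they were negative for acs-2 (-1.12), cpt-3 (-1.08), acs-17 (-0.93), cpt-4 (-0.88), ech-3 (-0.84), lips-15 (-0.78) and cpt-1 (-0.53). They were positive for lips-14 (1.4), lipl-2 (1.34), ech-6 (1.07), acs-7 (0.8), lipl-1 (0.78) and ech-5 (0.71). In the ire-1 mutant lips-14 was near the floor of the array both on the vector and with RNAi, so the size of its difference is uncertain. Between the pek-1 mutant and wild type they were 1.46 for lipl-6, 1.05 for lips-5 and 1 for lips-10. The response of pmt-2 itself differed by 1.33 ± 0.16 in the ire-1 mutant. In the pek-1 mutant its difference of 0.61 ± 0.16 was not called (limma adjusted p = 0.0613). The part of the pmt-2 response in the 16 differences was not tested.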

How the results depend on the processing

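The counts of genes called were recomputed with the variance of the compared groups alone, from the deposited means and SDs, with the authors' deposited FDR, without dim probe sets, with a trended and robust prior, with averaged probe sets, with centred changes, with the replicate number as a block, by the current RefSeq names (chosen after seeing the data) and with each array left out in turn. By the authors' deposited table the counts fell to 15 with pmt-2 RNAi in wild type, 14 with tunicamycin and 2 in the ire-1 mutant on the vector, a test on fewer arrays. With the variance of the compared groups alone they fell to 11 in the ire-1 mutant on the vector, and to 8 and 0 for the difference of responses in the ire-1 and pek-1 mutants. From the deposited means and SDs they were 1 in the pek-1 mutant on the vector and 5 for its difference of responses (4 higher, 1 lower). The cause was not tested. Among the 100 results for named genes that were recomputed, 0 changed sign where the change was called. With 1 array left out the counts ran from 29 to 34 for RNAi in wild type, 26 to 30 for tunicamycin, 45 to 49 for the pmt-2 mutant, 13 to 17 for the ire-1 mutant on the vector, 9 to 14 for the difference of responses in the ire-1 mutant and 3 to 8 in the pek-1 mutant. For RNAi in the atf-6, ire-1 and pek-1 mutants they ran from 25 to 28, 25 to 31 and 34 to 39. The direct comparisons gave 28 to 35 for tunicamycin against RNAi and 42 to 44 for the mutant against RNAi. With the replicate block the counts were 35, 30 and 48 for RNAi, tunicamycin and the pmt-2 mutant, 17 for the ire-1 mutant on the vector and 13 for its difference of responses. The split of higher against lower calls for that difference was 6 and 7 in the main fit, 8 and 6 from the deposited means and SDs, 9 and 5 without replicate 2 of N2 on RNAi and 3 and 6 without replicate 1 of N2 on the vector. Of 678 recomputations for single genes over the other settings, 653 kept their call, 14 lost it and 4 gained it. With an array left out, 588 of 636 kept it, 30 lost it and 3 gained it. The others were changes near 0, not called, whose sign turned. Each of the 62 genes has 1 probe set, so averaging probe sets left their values unchanged and could hardly alter a call. With the variance of the compared groups alone, lips-9 with RNAi in wild type was not called. Signals under 5, where 20 of the 62 genes lie in every group, limit what the arrays can show.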
